A study of Mus musculus with 3 samples.

Results

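The genes described here are 10 peptide and cannabinoid receptors among the 31053 genes counted in 3 single-cell RNA-seq libraries of mouse cortical SST+ neurons. They are the tachykinin receptor Tacr1, the galanin receptor Galr1, the opioid receptors Oprm1, Oprd1, and Oprl1, the neuropeptide Y receptors Npy1r and Npy2r, the SST receptors Sstr1 and Sstr2, and the cannabinoid receptor Cnr1. They were chosen by name with earlier results of these data known, and each had at least 1 UMI (unique molecular identifier, which marks a single captured mRNA molecule) in each library. GFP+ cells negative for DAPI, a dye that enters dead cells, were sorted from the NCx of mice carrying Sst Cre and the RCE reporter, in which Cre switches on GFP. Each stage was 1 library of pooled animals, with 6 animals at embryonic day 16.5 (E16.5), 3 at postnatal day 1 (P1), and 3 at postnatal day 5 (P5), of both sexes and on a C57Bl/6 background. The labels list no treatment, and all animals carried both alleles, so no group lacks the labelling. A cell stays GFP+ once Cre has acted, so the sort also holds cells that expressed Sst only earlier. The study followed how SST+ long-range projection (LRP) neurons, Martinotti cells (MCs), and non-Martinotti cells (nMCs) diverge during development.

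Receptor levels were compared between cells with at least 1 UMI of Nos1, which the study uses as a marker of LRP neurons, and cells with at least 1 UMI of Lhx6, a transcription factor of interneurons from the medial ganglionic eminence, and no Nos1. The first are called Nos1 cells (67, 434, and 547 at E16.5, P1, and P5) and the second Lhx6 cells (3269, 1606, and 1874). These gates are not cell types. Cells were kept with over 700 genes and under 10% mitochondrial UMIs, which left 9433 of 12324 cells. Levels are given as CPM (UMIs of a gene per 1000000 UMIs of its group) with exact 95% Poisson intervals in parentheses, and ratios carry exact 95% counting intervals. Cells of a library are not replicates of its stage, no test was made, and stage and library cannot be told apart. The intervals cover counting error only, and since UMIs were not divided by transcript length, levels are compared within a gene only.

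Peptide receptors are G protein-coupled receptors that answer to neuropeptides released at some distance, often over a longer time than fast transmitters act. Opioid, galanin, neuropeptide Y, SST, and CB1 receptors mostly couple to inhibitory G proteins, which lower cAMP and open potassium channels, whereas the substance P receptor, the product of Tacr1, couples mainly to the G protein that raises intracellular calcium. In the adult cortex, SST+ cells that also hold neuronal nitric oxide synthase and neuropeptide Y are known to carry the substance P receptor. CB1 receptors on inhibitory axons reduce transmitter release and act on growing axons during development.

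The 3 libraries held 13429055 to 25638779 UMIs. The median was 3073 to 7863 UMIs in Nos1 cells and 3811 to 5808 in Lhx6 cells, and P1 kept only 56.3% of its cells against 88.3% at E16.5 and 87.5% at P5. The libraries shared 10 cell barcodes, of which 4 passed the cell filters in both libraries of a pair. Dissociation also differed, with trypsin and DNase added at P5 and a Percoll step at P1 and P5. The part that these differences and the excitatory markers have in the results was not tested, except where values without the marked cells are given. Nos1 cells carried the LRP marker Chodl at 42.1, 284, and 399 CPM at E16.5, P1, and P5, against 7.21, 12.1, and 7.13 CPM in Lhx6 cells. Nos1 cells also held markers of excitatory neurons. Neurod2, Neurod6, Slc17a7, Slc17a6, and Tbr1 summed to 581, 154, and 6.11 CPM in Nos1 cells against 8.05, 9.36, and 2.81 CPM in Lhx6 cells. In total, 16 of 67, 22 of 434, and 4 of 547 Nos1 cells had a UMI of these 5 genes, and receptor values without those cells are given where they differ. Meis2, on the list fixed for other interneuron origins, stood at 168, 51.3, and 4.07 CPM in Nos1 cells and at 4.95, 3.75, and 0.540 CPM in Lhx6 cells. The other genes of that list (Sp8, Prox1, Vip, and Adarb2) are not given here, so Meis2 alone does not name an origin. The summed markers of astrocytes, microglia, endothelial cells, and blood reached at most 8.42 CPM in either group. The oligodendrocyte list (Olig1, Olig2, Pdgfra, and Mbp) summed to 40.4, 39.6, and 52.5 CPM in Nos1 cells and 19.3, 22.7, and 36.7 CPM in Lhx6 cells, nearly all of it Mbp, with the other 3 genes at 0 or 1 UMI each.

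**Figure D1:**
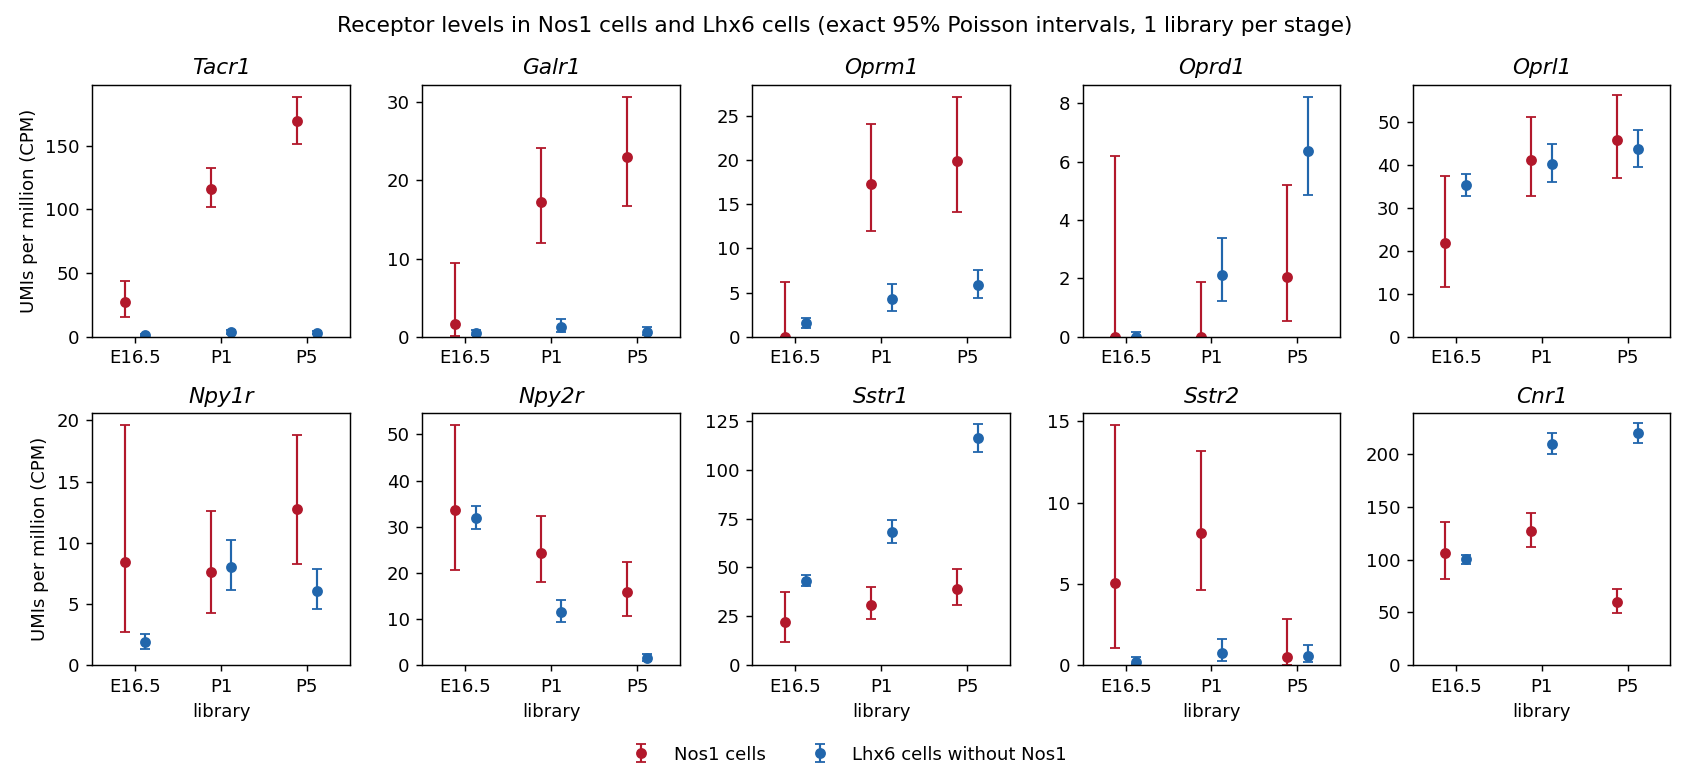
CPM (y axis) of the 10 receptor genes in Nos1 cells (red) and Lhx6 cells without Nos1 (blue) of each library (x axis), where points are levels over the summed UMIs and bars are exact 95% Poisson intervals. Tacr1, Galr1, and Oprm1 are higher in Nos1 cells at P1 and P5, and Sstr1 and Cnr1 are higher in Lhx6 cells there.

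Tacr1 had the widest gap between the groups of all 10 receptors in the P1 and P5 libraries, although its ratio intervals overlap those of Galr1 and, at P1, Sstr2. It was at 26.9 CPM (15.4 to 43.7) in Nos1 cells at E16.5, 116 CPM (102 to 132) at P1, and 169 CPM (151 to 188) at P5, from 16, 229, and 332 UMIs. Lhx6 cells were at 1.22 CPM (0.800 to 1.79), 3.62 CPM (2.42 to 5.20), and 2.81 CPM (1.83 to 4.11). The intervals of the groups did not overlap in any library. The ratio was 22.0-fold (11.0 to 42.6), 32.1-fold (21.8 to 49.0), and 60.2-fold (40.4 to 93.6), and without cells that had an excitatory marker UMI it was 33.3-fold (16.6 to 64.9), 34.8-fold (23.6 to 53.1), and 68.0-fold (44.6 to 109). A Tacr1 UMI was found in 17.9%, 33.4%, and 38.8% of Nos1 cells and in 0.704%, 1.43%, and 1.33% of Lhx6 cells. When each cell was thinned to 2000 UMIs and shallower cells were left out, these shares were 4.62%, 23.0%, and 27.3% in Nos1 cells and 0.226%, 0.760%, and 0.657% in Lhx6 cells. Cells of an excitatory gate (at least 3 UMIs of the 5 excitatory markers, more of them than of Gad1, Gad2, and Lhx6, and no Nos1), used as a reference for free RNA, had a Tacr1 UMI in 2 of 31, 1 of 27, and 4 of 22 cells, at median depths of 11905, 5156, and 4154 UMIs. The share in Lhx6 cells lay below that of the gate in each library, so the gate did not set it apart from free RNA. At P5 the gate held Tacr1 at 42.7 CPM (11.6 to 109), above the level of Lhx6 cells. Whether cells of the gate express Tacr1 themselves was not tested. The gate is small, with upper 95% limits of 21.4%, 19.0%, and 40.3%, and the interval of the share in Nos1 cells lay above it at P1 only. Tacr1 is on a list of LRP genes that the study drew from these same samples, so its direction here is not independent evidence.

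Galr1, which binds galanin, was nearly absent at E16.5 and differed between the groups after birth. It had 1 UMI in Nos1 cells at E16.5, was at 17.3 CPM (11.96 to 24.1) at P1, and at 22.9 CPM (16.7 to 30.7) at P5, from 34 and 45 UMIs. Lhx6 cells held 9, 10, and 5 UMIs, which is 0.424, 1.25, and 0.540 CPM. Nos1 cells were higher by 13.8-fold (6.68 to 31.4) at P1 and 42.4-fold (16.9 to 137) at P5, and the E16.5 ratio of 3.97-fold (0.0906 to 28.7) spanned both directions. The share of Nos1 cells with a Galr1 UMI was 6.68% at P1 and 6.58% at P5, or 4.49% and 4.83% after thinning. Among cells of the excitatory gate it was 0 of 31, 0 of 27, and 0 of 22, which allows shares of up to 9.68%, 11.1%, and 13.6%. Its share in Nos1 cells therefore could not be set apart from this reference by cell counts alone, although it was above that of the many more Lhx6 cells (0.623% and 0.213%). Within Nos1 cells, Tacr1 and Galr1 were found together in 19 cells at P1 and 23 at P5. Detection of each without regard to the other would give 9.69 and 14.0 cells, and deeper cells hold more of both.

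The opioid receptors followed 3 different patterns. Oprm1, the mu receptor, had 0 UMIs in Nos1 cells at E16.5, which allows up to 5.05 CPM, and was at 17.3 CPM (11.96 to 24.1) at P1 and 19.9 CPM (14.1 to 27.2) at P5. Lhx6 cells were at 1.51 CPM (1.03 to 2.13), 4.25 CPM (2.94 to 5.93), and 5.83 CPM (4.38 to 7.61). Nos1 cells were higher by 4.07-fold (2.45 to 6.74) and 3.41-fold (2.20 to 5.24) at P1 and P5, whereas at E16.5 no difference was detectable at this depth. A UMI of Oprm1 was found in 5.76% and 6.58% of Nos1 cells and in 1 of 27 and 0 of 22 cells of the excitatory gate, which allows up to 19.0% (95% limit) and 13.6% (3 counts), so these shares could not be set apart from the reference by cell counts. Thinned shares were 2.53% and 4.11% of Nos1 cells against 0.608% and 1.37% of Lhx6 cells. Oprd1, the delta receptor, went the other way. It had 0, 0, and 4 UMIs in Nos1 cells and 0, 17, and 59 UMIs in Lhx6 cells, where it reached 6.37 CPM (4.85 to 8.22) at P5. At P1, where it had under 20 UMIs, the lower limit of the ratio of Lhx6 over Nos1 cells was 1.01-fold, and 0.807-fold without cells that had an excitatory marker UMI, which includes equal levels. At P5, Lhx6 cells were 3.13-fold (1.16 to 11.9) higher. Their share with an Oprd1 UMI (2.93%) was below that of the excitatory gate. The gate share rests on 1 of 22 cells, with a 95% interval of 0.115% to 22.8%, so the shares could not be set apart by cell counts. In Lhx6 cells, the P5 level was 3.00-fold (1.73 to 5.49) that at P1. Against the 0 UMIs at E16.5, the lower 95% limit of the ratio was 35.5-fold. Oprl1, the nociceptin receptor, was at 21.9, 41.1, and 45.8 CPM in Nos1 cells and 35.3, 40.2, and 43.6 CPM in Lhx6 cells. All 3 of its ratios had intervals that include equal levels, with 1.02-fold (0.792 to 1.31) at P1 and 1.05-fold (0.827 to 1.32) at P5. Its UMIs were found in 14.9%, 15.4%, and 13.7% of Nos1 cells and 19.4%, 17.1%, and 18.4% of Lhx6 cells. The excitatory gate had it in 7 of 31, 7 of 27, and 8 of 22 cells, a larger share than either group in each library. Whether cells of the gate express Oprl1 themselves was not tested, so free RNA and expression could not be told apart for these shares.

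The receptors for neuropeptide Y, the peptide that Nos1 cells hold at 12366, 24679, and 34619 CPM, differed from each other. Npy2r, often a receptor on the releasing cell itself, was lower at each later stage in Lhx6 cells, with 31.9 CPM (29.6 to 34.4) at E16.5, 11.6 CPM (9.37 to 14.2) at P1, and 1.51 CPM (0.827 to 2.54) at P5. Nos1 cells held it at 33.7 CPM (20.6 to 52.0), 24.4 CPM (18.0 to 32.3), and 15.8 CPM (10.7 to 22.4). The groups overlapped at E16.5 and separated afterwards, with ratios of 1.05-fold (0.640 to 1.64), 2.10-fold (1.45 to 3.00), and 10.4-fold (5.39 to 21.2). A Npy2r UMI was found in 17.9%, 9.68%, and 5.48% of Nos1 cells, 13.6%, 4.98%, and 0.640% of Lhx6 cells, and 1 of 31, 0 of 27, and 0 of 22 cells of the excitatory gate, which at P1 and P5 allows up to 11.1% and 13.6%. Thinned shares of Npy2r were 3.08%, 5.06%, and 3.86% in Nos1 cells and 5.61%, 3.27%, and 0.299% in Lhx6 cells. Of the Nos1 cells with Npy2r, 10 of 12, 42 of 42, and 30 of 30 also had an Npy UMI, beside 65.7%, 93.3%, and 94.9% of all Nos1 cells. Npy1r, the receptor found mainly on target cells, was sparse. It was at 8.42, 7.62, and 12.7 CPM in Nos1 cells, from 5, 15, and 25 UMIs, and at 1.88, 7.99, and 6.05 CPM in Lhx6 cells. The 3 libraries gave no common direction, with ratios of 4.47-fold (1.38 to 11.3), 0.953-fold (0.504 to 1.69), and 2.11-fold (1.26 to 3.43). At P5, 10 of 22 cells of the excitatory gate had an Npy1r UMI, a larger share than the 4.57% of Nos1 cells. The gate held it at 128 CPM (66.2 to 224) there, against 8.23 CPM over all kept cells, so it is no reference for free RNA of this gene at P5. The shares of Lhx6 cells (1.13%, 3.30%, and 2.77%) lay below the gate in each library, and at E16.5 and P1 could not be set apart from it.

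Upstream sequences are shown for Tacr1, Oprm1, and Npy2r, which were higher in Nos1 cells at both P1 and P5, and for Cnr1, which was lower there. They are given 5′ to 3′ to show how these start regions differ. They are the bases before both the RefSeq start (build GRCm38.p6) and the GENCODE M21 start of each protein-coding gene, with CG dinucleotides in capitals. The genes themselves span chr6:82402334-82560104 on the plus strand (Tacr1), chr10:6758506-7038198 on the plus strand (Oprm1), chr3:82538383-82548084 on the minus strand (Npy2r), and chr4:33924593-33948831 on the plus strand (Cnr1) in GRCm38.
Tacr1, chr6:82402225-82402333, plus strand: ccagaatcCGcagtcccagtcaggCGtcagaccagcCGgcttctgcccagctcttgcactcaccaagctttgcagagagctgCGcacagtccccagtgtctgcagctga
Oprm1, chr10:6758343-6758505, plus strand: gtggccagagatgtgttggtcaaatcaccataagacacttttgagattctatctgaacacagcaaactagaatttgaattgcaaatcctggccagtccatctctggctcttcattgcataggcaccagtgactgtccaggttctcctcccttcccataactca
Npy2r, chr3:82548086-82548335, minus strand: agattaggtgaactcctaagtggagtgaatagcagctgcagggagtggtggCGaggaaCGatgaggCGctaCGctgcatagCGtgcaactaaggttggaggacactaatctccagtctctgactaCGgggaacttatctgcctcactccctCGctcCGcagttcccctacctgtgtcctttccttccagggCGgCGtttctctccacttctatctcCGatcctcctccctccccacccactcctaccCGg
Cnr1, chr4:33924394-33924592, plus strand: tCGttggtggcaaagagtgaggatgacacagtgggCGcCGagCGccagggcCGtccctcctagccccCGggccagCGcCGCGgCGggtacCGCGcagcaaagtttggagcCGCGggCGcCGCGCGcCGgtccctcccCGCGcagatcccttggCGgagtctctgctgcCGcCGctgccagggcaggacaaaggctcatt
In the full 250 bases of these windows, Tacr1 held 7 CG, Oprm1 0, Npy2r 12, and Cnr1 28, beside a median of 6 over 32851 windows. Windows were given for 8 of the 10 members, and Oprm1, Oprl1, and Cnr1 had more than 1 start. The other windows of Oprm1 held 4 CG each, and those of Cnr1 held 36 and 5. The octamer of POU factors (ATGCAAAT) lay in 1.60% of all windows, the core of LIM homeodomain factors (TAATTA) in 4.84%, and the cAMP response element (TGACGTCA) in 1.55%, on either strand. No window of the 8 members held the octamer or TAATTA, only Sstr2 held TGACGTCA, and its first 5 letters, TGACG, lay in the windows of Tacr1 (as CGTCA on the printed strand) and Sstr2 and in 17.8% of all. A match is a description of these letters, not a site.

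The SST receptors are the ones by which SST itself acts, and Sst was at 5269.7, 5332, and 4205 CPM in Nos1 cells. Sstr1 was lower in Nos1 cells in each library. It was at 21.9 CPM (11.7 to 37.4), 31.0 CPM (23.7 to 39.8), and 39.2 CPM (31.0 to 49.0) in Nos1 cells and at 43.1 CPM (40.3 to 46.0), 68.0 CPM (62.5 to 74.0), and 116 CPM (109 to 123) in Lhx6 cells. Lhx6 cells were higher by 1.97-fold (1.15 to 3.71), 2.20-fold (1.68 to 2.91), and 2.96-fold (2.35 to 3.78). At E16.5 this rested on 13 UMIs in Nos1 cells, none of them in the 16 cells with excitatory markers, and without those cells the ratio was 1.34-fold (0.778 to 2.52), which includes equal levels. Thinned shares of Sstr1 in Lhx6 cells were 6.77%, 11.0%, and 20.1%, against 4.62%, 4.49%, and 5.31% in Nos1 cells. In the excitatory gate a Sstr1 UMI was found in 5 of 22 cells at P5 (22.7%), between the unthinned 9.69% of Nos1 cells, which is read as background, and 36.6% of Lhx6 cells. Sstr2 was rare throughout. It had 3, 16, and 1 UMIs in Nos1 cells and 4, 6, and 5 in Lhx6 cells. At P1 the ratio was 10.8-fold (4.03 to 33.8), but 12 of the 16 UMIs lay in the 22 Nos1 cells with an excitatory marker, and without them it was 2.96-fold (0.615 to 12.5). All 3 UMIs of Sstr2 in Nos1 cells at E16.5 were in such cells as well.

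Cnr1, which encodes the CB1 receptor, was at 100.3 CPM (96.1 to 105), 209.6 CPM (199.7 to 219.9), and 219.7 CPM (210.2 to 229) in Lhx6 cells, with the step between E16.5 and P1. Nos1 cells were at 106 CPM (81.5 to 136), 127 CPM (112 to 144), and 60.1 CPM (49.8 to 72.0). The groups overlapped at E16.5, and Lhx6 cells were higher by 1.64-fold (1.44 to 1.89) at P1 and 3.65-fold (3.03 to 4.44) at P5. The E16.5 value in Nos1 cells rested on few cells. Of its 63 UMIs, 59 lay in the 16 Nos1 cells with an excitatory marker UMI (307 CPM), and the other 51 Nos1 cells held 4, or 9.96 CPM (2.71 to 25.5). Without cells that had an excitatory marker UMI, Lhx6 cells were higher by 10.1-fold (3.92 to 37.0) at E16.5, 1.92-fold (1.65 to 2.24) at P1, and 3.63-fold (3.02 to 4.41) at P5. The excitatory gate itself had Cnr1 UMIs in 23 of 31, 20 of 27, and 5 of 22 cells, so it is no reference for free RNA of this gene at E16.5 and P1. At P5 its share of 22.7% (7.82% to 45.4%) was above the 14.4% of Nos1 cells and below the 48.2% of Lhx6 cells. The share in Nos1 cells could not be set apart from the gate, and the part of free RNA in it was not tested. Thinned shares were 13.8%, 12.9%, and 8.21% of Nos1 cells and 15.97%, 21.0%, and 28.4% of Lhx6 cells. Cnr1 is on the study's own list of MC genes from these samples, which is not independent evidence of its direction.

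**Figure D2:**
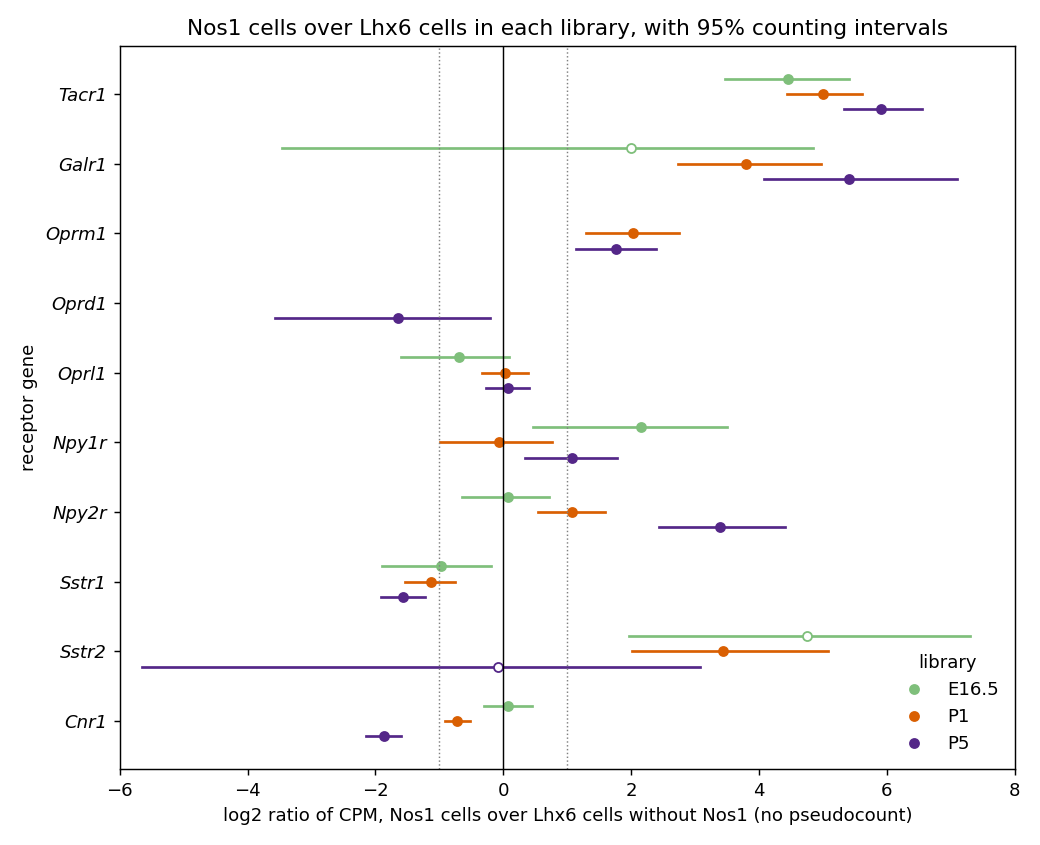
Log2 ratio of CPM (x axis, with no pseudocount) in Nos1 cells over Lhx6 cells for each receptor gene (y axis) and library (colours), with 95% counting intervals as lines. Open points have under 20 UMIs over both groups, dotted lines mark 2-fold, and ratios with 0 UMIs in a group are not drawn. All 3 Tacr1 intervals lie above 2-fold, and the Cnr1 points go from near 0 at E16.5 to below -1 at P5. Without cells that had an excitatory marker UMI, which are included in the points drawn, the Cnr1 value was -3.33 at E16.5 and -1.86 at P5.

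Counted against a size of 2-fold, on the log2 scale with 1 CPM added and over genes with at least 20 UMIs in both groups together, 4 receptors were higher in Nos1 cells in both postnatal libraries. At P1, 5 of 9 receptors with enough UMIs were higher (Tacr1, Galr1, Oprm1, Npy2r, and Sstr2), where 3.63% of 11982 genes were, and 1 was lower (Sstr1), where 3.10% of genes were. At P5, 4 of 9 were higher (Tacr1, Galr1, Oprm1, and Npy2r) against 3.64% of 12267 genes, and 3 were lower (Oprd1, Sstr1, and Cnr1) against 6.39%. At E16.5, 2 of 7 were higher (Tacr1 and Npy1r, the latter from 5 UMIs) against 6.08% of 12530 genes, and 1 was lower against 9.41%. That one was Oprm1, whose Lhx6 level is under what 0 UMIs in Nos1 cells allow, so neither a difference nor equal levels were shown. The median log2 ratio of the receptors was 0.07, 1.01, and 0.96 at E16.5, P1, and P5, beside -0.04, -0.03, and -0.07 over all genes, and 0.08 at E16.5 with Oprm1 at the level that 0 UMIs allow. Among cells with over 1000 genes and under 5% mitochondrial UMIs, 222 Nos1 cells remained at P1, and Oprm1, Npy2r, and Sstr2 were no longer counted there. Without cells that had an excitatory marker UMI, Sstr2 at P1 held 4 UMIs in Nos1 cells and 6 in Lhx6 cells, under the 20 needed. At E16.5, leaving these cells out put Cnr1 lower in Nos1 cells, at a log2 ratio of -3.21.

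Within Nos1 cells, receptor levels differed with the Nos1 count of the cell, in opposite directions for Tacr1 and Cnr1. Tacr1 was at 34.2 CPM (21.5 to 51.8) in P1 cells with 1 Nos1 UMI, 112 CPM (75.8 to 158) with 2 to 4, 153 CPM (109.7 to 207) with 5 to 9, and 173 CPM (145 to 205) with 10 or more. The same classes held 22.3, 162, 164, and 218 CPM at P5. The top class was higher than the bottom class by 5.05-fold (3.20 to 8.33) and 9.77-fold (4.66 to 24.6). Galr1 had 1 UMI in the bottom class at P1 and 1 at P5, against 34.6 CPM (22.8 to 50.3) and 32.6 CPM (22.4 to 45.8) in the top class. Cnr1 was lower in the top class instead, at 56.4 CPM (40.9 to 75.7) against 232 CPM (196 to 272) at P1 and 36.5 CPM (25.7 to 50.4) against 179 CPM (135 to 232) at P5. The bottom class was higher by 4.11-fold (2.92 to 5.90) and 4.89-fold (3.17 to 7.62), and its intervals include the levels of Lhx6 cells at the same stage. The shares of all Nos1 cells with Cnr1 or Sstr1 at P5 could not be set apart from the excitatory gate, which limits both genes here. Sstr1 was likewise lower in the top class, by 2.20-fold (1.16 to 4.34) at P1 and 4.44-fold (2.55 to 7.86) at P5. The ratios of Oprl1 between these classes, 0.649-fold (0.372 to 1.12) and 0.700-fold (0.399 to 1.27), include equal levels. The classes held 126, 80, 83, and 145 cells at P1 and 81, 82, 147, and 237 at P5, and the class with 10 or more also had more UMIs per cell than the classes with 2 to 9. Neither Tacr1 nor Galr1 had a UMI in the 12 and 40 Nos1 cells without an Sst UMI at E16.5 and P1, and at P5 the 22 such cells held 2 and 1 UMIs.

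**Figure D3:**
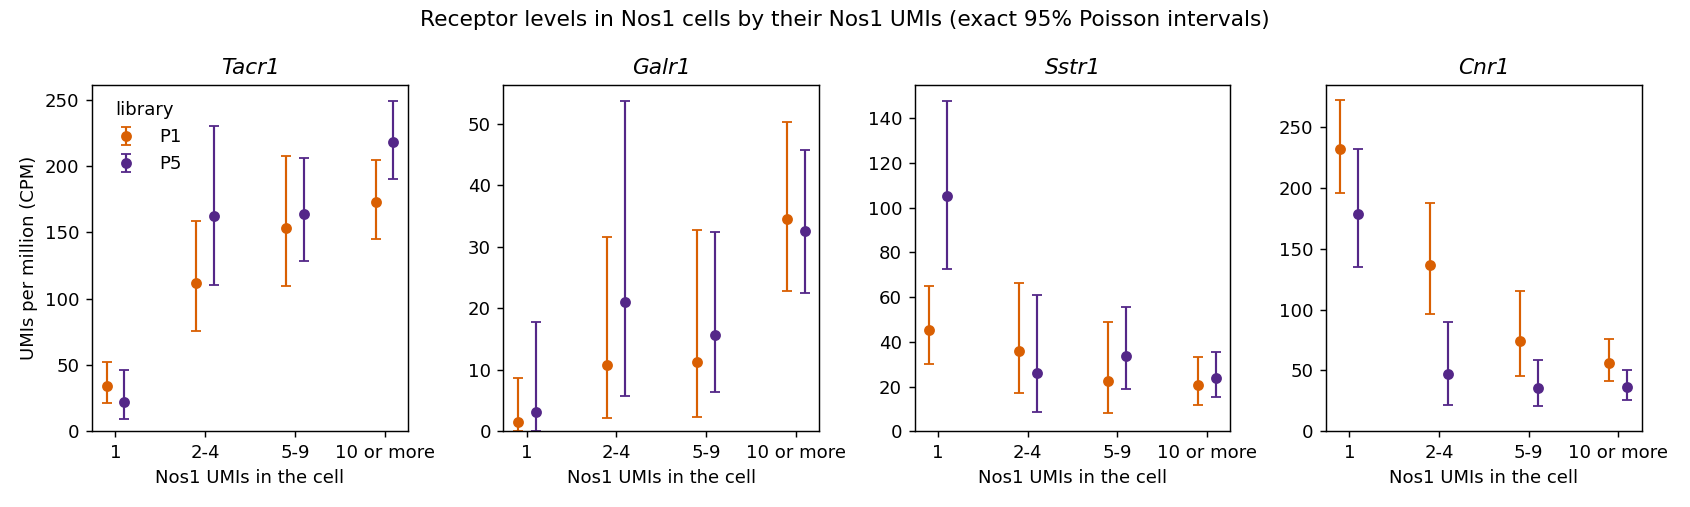
CPM (y axis) of Tacr1, Galr1, Sstr1, and Cnr1 in Nos1 cells grouped by their number of Nos1 UMIs (x axis), at P1 (orange) and P5 (purple), with exact 95% Poisson intervals. Tacr1 and Galr1 are lowest and Cnr1 and Sstr1 highest in cells with 1 Nos1 UMI.

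The study names Dach1 and Lypd1 as markers of different LRP subtypes, and Nos1 cells with a UMI of only the former or only the latter differed in their receptors. At P1, 98 cells had Dach1 and 55 had Lypd1. At P5, these were 27 and 221. Galr1 had the largest ratios, although their intervals overlap those of Npy2r. It was at 56.1 CPM (36.0 to 83.5) with Dach1 and 3.10 CPM (0.0784 to 17.3) with Lypd1 at P1, and at 112 CPM (55.9 to 200.4) and 10.6 CPM (4.85 to 20.1) at P5. The ratio was 18.1-fold (2.95 to 745) at P1, against 1 UMI, and 10.6-fold (3.98 to 28.9) at P5. Npy2r was also higher with Dach1, by 4.03-fold (1.15 to 21.6) and 5.76-fold (1.69 to 18.1), on 16 against 3 and 6 against 9 UMIs. Cnr1 was at 119 against 46.5 CPM at P1 and 163 against 33.0 CPM at P5, higher with Dach1 by 2.57-fold (1.42 to 4.92) and 4.94-fold (2.50 to 9.45). The share of all Nos1 cells with Cnr1 at P5 could not be set apart from the excitatory gate. Tacr1 was found in both, at 222 against 118 CPM and 316 against 160.1 CPM, with ratios of 1.89-fold (1.28 to 2.83) and 1.97-fold (1.29 to 2.93). Sstr1 was higher with Dach1 by 3.21-fold (1.05 to 13.1) at P1, and its P5 ratio of 1.24-fold (0.236 to 4.14) includes equal levels. Oprm1 had 6 and 0 UMIs in cells with Dach1 and 9 and 13 in cells with Lypd1, with intervals of the ratio that include equal levels. At E16.5 only 1 Nos1 cell had Lypd1 alone, so no comparison was made there. In the 22 cells with Dach1 at E16.5, Tacr1 was at 44.5 CPM (17.9 to 91.8) and Galr1 had 0 UMIs.

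**Figure D4:**
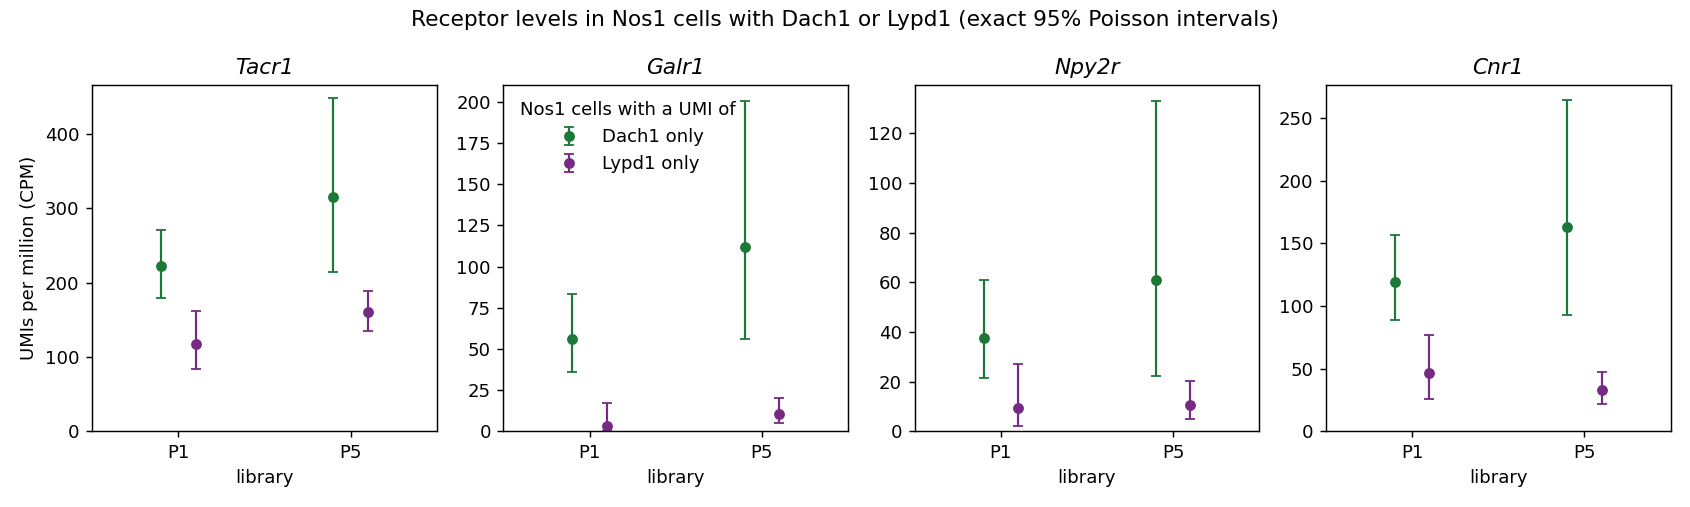
CPM (y axis) of Tacr1, Galr1, Npy2r, and Cnr1 in Nos1 cells with a UMI of Dach1 only (green) or Lypd1 only (purple) at P1 and P5 (x axis), with exact 95% Poisson intervals. All 4 genes are higher in cells with Dach1 in both libraries, and the ratio is largest for Galr1.

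Within Lhx6 cells, Reln and Erbb4 served as gates, since the study names them for the MC and nMC branches. Cnr1 and Sstr1 were higher in cells with Reln alone in all 3 libraries. Cnr1 was at 178 CPM (162 to 195), 325 CPM (300.0 to 351), and 273 CPM (258 to 288) with Reln, and at 51.8 CPM (47.3 to 56.6), 104 CPM (92.2 to 117), and 132 CPM (117 to 148) with Erbb4. The ratio was 3.44-fold (3.02 to 3.92) at E16.5, 3.12-fold (2.70 to 3.60) at P1, and 2.06-fold (1.81 to 2.35) at P5, where its interval lay below the other two. Sstr1 was at 60.2, 98.9, and 130.01 CPM with Reln and 35.0, 31.7, and 75.3 CPM with Erbb4, higher with Reln by 1.72-fold (1.41 to 2.09), 3.12-fold (2.40 to 4.08), and 1.73-fold (1.45 to 2.07). Cells with both Sstr1 and Cnr1 numbered 304, 195, and 415 of all Lhx6 cells, where detection of each without regard to the other would give 203, 117, and 331, and deeper cells hold more of both. Npy2r was lower with Reln at E16.5, at 25.0 against 36.9 CPM, or 1.48-fold (1.13 to 1.96) lower, and at P1 the ratio of 0.835-fold (0.436 to 1.55) included equal levels. Oprm1 had 0 UMIs with Reln and 19 with Erbb4 at E16.5, and 33 and 7 at P5, where the ratio was 2.26-fold (0.981 to 6.04). Oprl1 was at 49.9 against 34.4 CPM at P5, a ratio of 1.45-fold (1.11 to 1.91), and its intervals at E16.5 and P1 included equal levels. Of the few Tacr1 UMIs in Lhx6 cells, 14 of 29 at P1 and 13 of 26 at P5 lay in the 323 and 337 cells with neither Reln nor Erbb4, which also had the fewest UMIs per cell. The gates held 389, 314, and 812 cells with Reln and 1529, 647, and 491 with Erbb4.

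**Figure D5:**
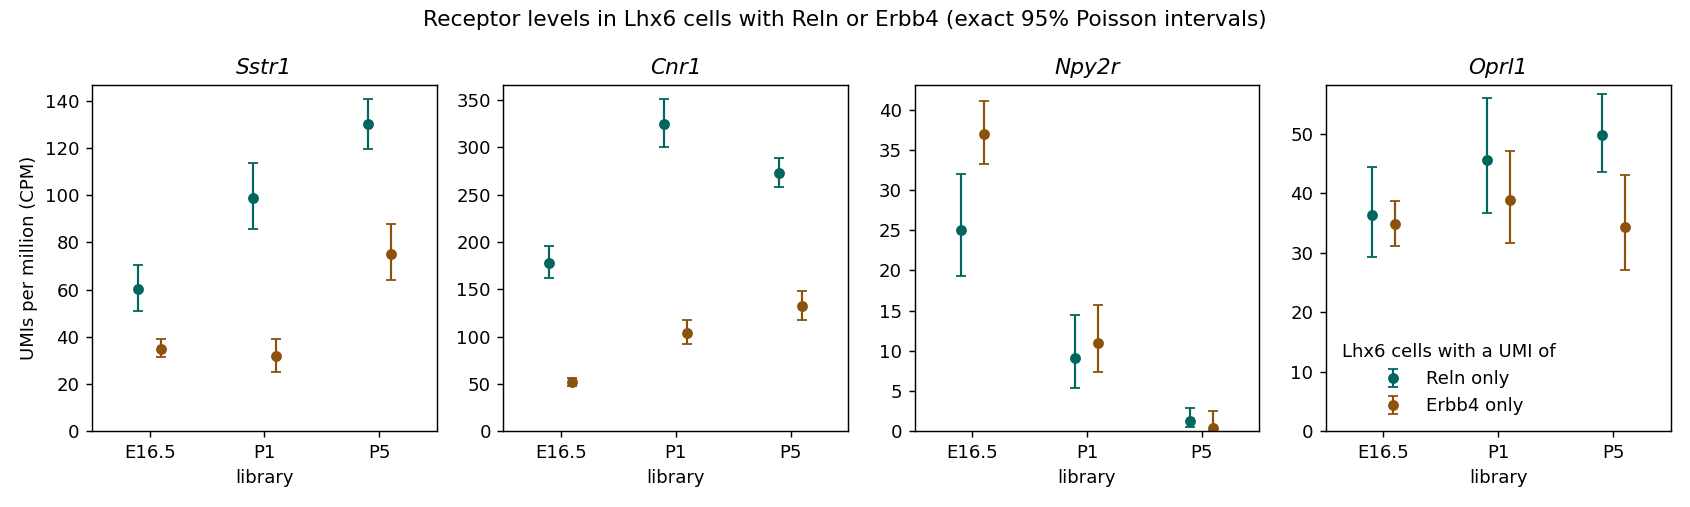
CPM (y axis) of Sstr1, Cnr1, Npy2r, and Oprl1 in Lhx6 cells with a UMI of Reln only (teal) or Erbb4 only (brown) in each library (x axis), with exact 95% Poisson intervals. Sstr1 and Cnr1 are higher with Reln in all 3 libraries, and Npy2r is near 0 in both gates at P5.

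Between stages, Npy2r was lower and Cnr1 and Sstr1 were higher in Lhx6 cells at P5 than at E16.5. From E16.5 to P1, 4 of 7 receptors with enough UMIs were at least 2-fold higher (Tacr1, Oprm1, Npy1r, and Cnr1), against 10.8% of 13177 genes, and Npy2r was lower, against 3.53%. From P1 to P5, Oprd1 was higher and Npy2r lower among 8, against 9.09% and 10.4% of 12919 genes. Between E16.5 and P5, 5 of 8 were higher (Oprm1, Oprd1, Npy1r, Sstr1, and Cnr1) against 18.6% of 13482 genes, and Npy2r was lower against 12.8%. These comparisons share libraries. Tacr1, Npy1r, and, at E16.5 and P1, Oprm1 stand in these counts although their shares in Lhx6 cells lay below those of the excitatory gate. The share of Oprd1 at P5 did so too, and the gate did not set these shares apart from free RNA. The median log2 ratio of the receptors was 1.05, 0.09, and 1.21 for P1 over E16.5, P5 over P1, and P5 over E16.5, beside 0.16, -0.09, and 0.05 over all genes. Npy2r was lower by 2.75-fold (2.21 to 3.45) from E16.5 to P1 and by 7.68-fold (4.35 to 14.6) from P1 to P5. Sstr1 was 2.69-fold (2.46 to 2.94) and Cnr1 2.19-fold (2.06 to 2.33) higher at P5 than at E16.5. From E16.5 to P1, Cnr1 was 2.09-fold (1.96 to 2.23) higher, which is close to the size that was counted. In Nos1 cells, Tacr1 at P5 was 1.45-fold (1.23 to 1.73) its P1 level, whereas Cnr1 was lower by 2.12-fold (1.70 to 2.66). Without cells that had an excitatory marker UMI, the ratio of P5 over P1 was 1.33 (1.12 to 1.58) for Tacr1 and 0.556 (0.438 to 0.703) for Cnr1, which no longer passed 2-fold.

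Ligands and partners of these receptors were taken from a list of 68 genes, of which 66 were in the files. At P1, 5 of the 46 with enough UMIs were at least 2-fold higher in Nos1 cells and 6 were lower, beside 3.63% and 3.10% of all genes. At P5, 5 of 49 were higher and 12 were lower, beside 3.64% and 6.39%. Those in the same direction in both libraries were 5 higher and 5 lower. Among peptide precursors, Npy was at 24679 against 1208 CPM at P1 and 34619 against 816 CPM at P5. Penk, the enkephalin precursor, was at 43.2 against 9.74 and 119.7 against 17.0 CPM, and Sst at 5332 against 1518 and 4205 against 1425 CPM. Cort, a peptide that also binds SST receptors, was lower in Nos1 cells, at 52.3 against 176 and 211 against 561 CPM. Tac1, the precursor of the Tacr1 ligand substance P, was the other lower precursor, at 7.62 against 46.4 and 21.9 against 50.9 CPM, whereas at E16.5 it was higher in Nos1 cells, at 118 against 21.1 CPM. Downstream of the receptors, 0 of 8 G protein subunits passed 2-fold in any of the 3 libraries. Of 3 GIRK channel genes with enough UMIs, Kcnj6 was lower in both P1 and P5, at 3.55 against 11.2 and 5.09 against 19.3 CPM. Among 6 adenylyl cyclases, Adcy5 was higher (72.6 against 30.7 and 48.9 against 22.9 CPM) and Adcy1 lower (205 against 438 and 264 against 894 CPM). Rgs8, a regulator that shortens G protein signals, was higher, at 58.4 against 16.4 and 84.0 against 40.8 CPM, and the peptidase Mme was lower, at 4.06 against 21.0 and 8.66 against 20.6 CPM. Of 8 endocannabinoid enzymes and partners, 0 passed 2-fold at P1 or P5, whereas 2 were higher in Nos1 cells at E16.5. Of 13 other receptors of the same ligands, Oprk1 at P5 was the single gene with 20 UMIs, at 4.07 against 3.67 CPM.

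Genes with a similar pattern were ranked by Pearson's r of log2 CPM over 12 points, the Dach1, Lypd1, and other Nos1 cells and the Reln, Erbb4, and other Lhx6 cells of P1 and P5. The points come from 2 libraries and are not independent, and the r values describe likeness. Those nearest to Tacr1 were Syt6 (0.994), Npy (0.993), and Nos1 (0.985), of which Nos1 also defined the gate. For Galr1 they were Hhip (0.965), Tecta (0.963), and Adgrg6 (0.956), for Oprm1 Ccser1 (0.939), P2rx2 (0.934), and Fgd6 (0.922), and for Oprl1 Vps52 (0.979), R3hcc1 (0.964), and Bbs4 (0.961). Npy1r was nearest to Cnih4 (0.958), Spg7 (0.929), and Agfg1 (0.925) and Npy2r to Lama1 (0.956), Spcs2 (0.955), and Sox1 (0.947). For Sstr1 they were Jak1 (0.928), Ppp1r14c (0.922), and Pgap1 (0.922), and for Cnr1 Gabra3 (0.967), 5033430I15Rik (0.942), and Fgf13 (0.918). Oprd1 and Sstr2, with 80 and 35 UMIs in all, were left out for low counts.

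Receptors were also counted per cell. Without thinning, 2 or more of the 10 had a UMI in 23.9%, 29.7%, and 27.4% of Nos1 cells, listed by stage, and in 22.9%, 23.4%, and 33.7% of Lhx6 cells. After thinning to 2000 UMIs, 2 or more of the 10 receptors had a UMI in 0 of 65, 13.5%, and 15.5% of Nos1 cells (E16.5, P1, and P5 in turn), and in 4.35%, 6.996%, and 11.7% of Lhx6 cells. The 0 at E16.5 allows up to 4.62% of these cells. None of the 10 had a UMI in 67.7%, 55.6%, and 50.7% of thinned Nos1 cells and in 69.7%, 61.5%, and 50.4% of thinned Lhx6 cells.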

How the data were processed

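The files held UMI counts per gene and cell, which the authors made with Cell Ranger (3.1.0 for E16.5 and P5, 3.0.2 for P1) and STAR on GRCm38 and deposited unnormalised as 1 matrix per library. The gene annotation they used is not given in the sources used here, and gene positions were taken from GENCODE M21. UMIs were summed over the cells of each group and expressed as CPM with Python 3.11.15, numpy 2.4.6, scipy 1.17.1, and pandas 2.3.3. Cells with at most 700 genes or at least 10% mitochondrial UMIs were left out. The study's further limit on ln(total UMIs), which would keep 9404 cells, was an alternative. Intervals were exact Poisson for CPM, Clopper-Pearson for shares, and exact binomial for ratios, at 95%. Log2 ratios used 1 CPM as pseudocount and genes with at least 20 UMIs over both groups. A count of 0 was read as up to 3 UMIs. Clusters, doublet calls, and tests between stages were not used. Leaving out the top 5% of cells by UMIs stood in for a doublet filter.

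Members and lists were chosen with earlier results of these data known. All members are named, and partner genes are named if past 2-fold in the same direction at P1 and P5, at most 4 per list. Tac1 and Oprk1 lie outside that rule and were named after their values were seen. Likeness used genes at 20 CPM or more in a point. The ratio functions were tested on simulated data. Leaving out cells with excitatory marker UMIs and requiring Sst were alternatives chosen after seeing the data. Promoter windows came from RefSeq (GRCm38.p6), and Galr1 and Sstr1 had none.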

Additional observations from a re-analysis of the deposited data

Results flagged for a closer look

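Cnr1 went in opposite directions in the 2 groups between E16.5 and P5. Its log2 ratio of P5 over E16.5 was -0.81 in Nos1 cells and 1.12 in Lhx6 cells, a difference of -1.93, and that difference was not tested, since each stage is 1 library. At E16.5, 59 of the 63 Cnr1 UMIs of Nos1 cells lay in 16 cells with a UMI of an excitatory marker, and without such cells the ratio was 2.49 in Nos1 cells, on 4 UMIs at E16.5, and 1.13 in Lhx6 cells.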

How the results depend on the processing

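Of 366 log2 ratios between Nos1 and Lhx6 cells under the alternatives, 339 were counted as within the counting interval of the reported value, 26 lay outside it, and 1 changed sign past 2-fold. The 339 include the 15 values of Oprm1 at E16.5 by rule, since 0 UMIs give no finite ratio, and these ranged from -2.01 to -0.38. Alternatives that left a receptor under the UMI minimum were not counted, which left 8 for Sstr2 at P1. The ratio that changed sign was Npy1r at E16.5, at -1.53 when Nos1 cells needed at least 3 Nos1 UMIs, which left 16 cells. Tacr1 ranged from 2.36 to 4.35 at E16.5, 3.69 to 5.15 at P1, and 4.48 to 5.78 at P5. Cnr1 ranged from -3.21 to 0.10 at E16.5, where the lowest value came from leaving out cells with an excitatory marker UMI. The number of receptors past 2-fold between the groups at E16.5 (3) became 4 with at least 3 Nos1 UMIs, 5 among cells with over 1000 genes and under 5% mitochondrial UMIs, and 1 with a pseudocount of 5 CPM. At P1 (6) it became 3 among cells with over 1000 genes and under 5% mitochondrial UMIs. Between E16.5 and P1 in Lhx6 cells, the 5 receptors became 3 with at least 2 Lhx6 UMIs (without Tacr1 and Oprm1), 3 among cells with over 1000 genes and under 5% mitochondrial UMIs and 3 without the top 5% of cells by UMIs (both without Oprm1 and Cnr1), 3 with the mean of per-cell CPM (without Cnr1 and Npy2r), and 2 with a pseudocount of 5 CPM. From P1 to P5, 2 became 1 with that pseudocount (without Oprd1). The other 41 of 45 and 18 of 24 counts stayed within 1.5 times. At E16.5, 5 receptors had the higher share in Nos1 cells, and 3 after thinning (without Galr1 and Npy2r). Over shares of cells with a UMI and the counts made from them, thinning moved 52 of 63 values, and 11 stayed the same by the limits used. The causes were not tested. No paired analysis was possible because no result comes from a test. Both groups of a comparison come from the same library, and each library's ratio is given. With 67 Nos1 cells at E16.5, 0 UMIs allow up to 5.05 CPM.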
